A study of Homo sapiens with 9 samples.

Results

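Laminin-332, epithelial integrins and the hemidesmosome were followed here through 9 genes, picked by name with earlier results of these data known. They are the laminin chain genes LAMA3 and LAMB3 and the integrin alpha genes ITGA2, ITGA3 and ITGA6. The integrin beta genes ITGB1, ITGB4 and ITGB6, and COL17A1, complete the set. Each symbol had a single row among the 60605 genes of the deposited table, and all 9 were among the 21395 genes tested, those averaging 0.1 FPKM or more (FPKM are counted fragments scaled to exon length and library total). RNA-seq was carried out on TE13, a human esophageal squamous cell carcinoma (ESCC) line, transfected with a control siRNA or with one of a pair of siRNAs against PARylator, called siRNA.1 and siRNA.2, and each condition has 3 libraries. PARylator is the study's name for the long noncoding RNA LINC00885, and the libraries compare its knockdown by either siRNA with the control. All libraries came from a single cell line, and the labels call the 3 libraries of a condition biological replicates without naming a transfection date. The p-values therefore concern the spread between these libraries only. In the main edgeR fit that spread was taken from genes of similar abundance and not from each gene itself. Very small edgeR p-values below should be read with this limit. Both knockdown conditions share the same 3 control libraries.

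Laminin-332 is a secreted heterotrimer of the epithelial basement membrane, in which LAMA3 encodes the alpha chain and LAMB3 the beta chain. Integrins are transmembrane receptors made of an alpha and a beta subunit, and only the paired subunits reach the cell surface. In the hemidesmosome, the junction that ties basal keratinocytes to laminin-332, the ITGA6-ITGB4 receptor and the transmembrane collagen COL17A1 connect the basement membrane to keratin filaments through plectin (PLEC) and dystonin (DST). ITGA3-ITGB1 also binds laminin-332 and connects to actin in focal adhesions, ITGA2-ITGB1 binds mainly collagen, and ITGB6 pairs with ITGAV in an epithelial receptor that binds and activates latent TGF-beta.

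After PARylator knockdown both laminin genes and COL17A1 were higher with either siRNA, while the integrin subunit genes moved less and mostly downward. COL17A1 rose 1.86-fold with siRNA.1 and 1.94-fold with siRNA.2, LAMA3 rose 1.78-fold and 1.95-fold, and LAMB3 rose 1.47-fold and 1.45-fold. ITGA3, ITGA6, ITGB1 and ITGB6 fell with both siRNAs, and ITGB4 fell with siRNA.2 and did not pass the test with siRNA.1. By edgeR's quasi-likelihood test at an adjusted p threshold of 0.05, 8 of the 9 genes were called with siRNA.1, 4 higher and 4 lower, where 30.3% of all genes tested were called (15.0% higher and 15.2% lower). With siRNA.2 all 9 were called, 4 higher and 5 lower, where 30.9% of all genes were called (15.8% higher and 15.1% lower). Called higher with both siRNAs were 4 of the 9 genes, against 11.1% of all genes, and called lower with both were 4, against 10.2%. The fourth gene called higher, ITGA2, did not pass in DESeq2. The 9 genes are abundant, and even ITGB6, the lowest, lay above 84.4% of genes tested in the control. Abundant genes are called more often. Among the 12532 genes averaging 1 FPKM or more, 5819 were called with siRNA.1 and 5913 with siRNA.2, a larger share than over all genes tested. Over the 9 genes the log2 fold change had a median of -0.06 after siRNA.1 and -0.17 after siRNA.2, beside 0.00 in both for all genes tested. CPM are counts scaled to the library total times edgeR's TMM scaling factor. By CPM, knockdown and control libraries did not overlap for 7 of the 9 genes with siRNA.1, where 38.5% of all genes did not. With siRNA.2 they did not overlap for 8 of the 9, where 39.8% of all genes did not.

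The sequence just before the transcription start is shown for the 3 genes that rose most, so that their promoters can be read side by side. ITGA2, also called higher with both siRNAs by edgeR, rose less and its window is not shown. RefSeq promoter windows (GRCh38.p14) were found for 7 of the 9 genes, 11 windows in all, and none was found for ITGA3 and ITGB4. Each run below holds the 250 bases before the start, 5′ to 3′ on the gene's strand, and capitals mark AP-1 motifs, the letters TGANTCA on either strand. The LAMA3 window, chr18:23872770-23873019 on the plus strand, lies before the start of the short transcript LAMA3-201, overlaps no annotated exon and falls inside the gene as drawn for its longest transcripts. The LAMB3 window is chr1:209652426-209652675 and the COL17A1 window chr10:104085881-104086130, both on the minus strand.
LAMA3: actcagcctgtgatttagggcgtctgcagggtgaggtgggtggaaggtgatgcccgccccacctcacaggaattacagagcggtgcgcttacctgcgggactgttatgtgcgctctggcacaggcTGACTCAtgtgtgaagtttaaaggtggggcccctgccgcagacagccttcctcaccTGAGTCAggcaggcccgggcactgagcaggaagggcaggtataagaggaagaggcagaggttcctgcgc
LAMB3: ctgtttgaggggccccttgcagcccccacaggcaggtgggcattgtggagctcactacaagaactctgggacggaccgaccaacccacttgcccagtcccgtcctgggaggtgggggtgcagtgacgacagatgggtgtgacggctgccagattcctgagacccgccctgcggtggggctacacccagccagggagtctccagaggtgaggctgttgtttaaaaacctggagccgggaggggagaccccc
COL17A1: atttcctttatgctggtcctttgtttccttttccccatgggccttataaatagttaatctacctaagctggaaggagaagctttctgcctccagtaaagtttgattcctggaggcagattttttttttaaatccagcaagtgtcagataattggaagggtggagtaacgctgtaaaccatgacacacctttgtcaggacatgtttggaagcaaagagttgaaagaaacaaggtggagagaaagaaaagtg
The LAMA3 run holds 2 AP-1 motifs, TGACTCA 125 bases and TGAGTCA 69 bases before the start, and a GC box (GGGCGG) 197 bases before it. The LAMB3 run shown holds a GC box 88 bases before the start and no AP-1 motif, and a LAMB3 window further downstream, which overlaps an exon and is not shown, has TGACTCA 67 bases before its start. Neither laminin run holds another of the motifs searched, and in the COL17A1 run none of the 5 motifs searched was found (AP-1, the GC box GGGCGG, the TEAD motif GGAATG, the E-box CACGTG and the ETS motif CCGGAA, both strands). Of all 35116 windows in the table, 6.57% hold an AP-1 motif, 42.6% a GC box, 11.9% a TEAD motif, 6.34% an E-box and 14.5% an ETS motif. Among the 11 windows of the genes followed here, 2 hold an AP-1 motif, both described above, and 7 hold a GC box. A match describes these letters only, and binding was not measured.

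Total counts per library lay between 15337917 and 17899074 in the control, between 15374616 and 17762752 with siRNA.1, and between 19213164 and 22559998 with siRNA.2. The 9 genes had between 948 counts (ITGB6) and 70591 counts (LAMA3) in a library. LINC00885 itself was close to the limit of detection, with 6, 7 and 12 counts in the control libraries, 4, 5 and 2 with siRNA.1 and 2, 0 and 4 with siRNA.2. The mitochondrial share of counts was 7.46% to 7.66% in the control, 4.99% to 5.06% after siRNA.1 and 5.54% to 5.56% after siRNA.2, and its part in the results was not tested. All 7 squamous keratinocyte markers examined and all 5 markers of simple epithelium reached 1 FPKM in every condition. The squamous markers summed to 479 to 499 FPKM in the control libraries, 395 to 430 after siRNA.1 and 419 to 436 after siRNA.2. The lower sum came with KRT5, at 142, 40.0 and 55.8 FPKM in the 3 conditions, while KRT6A, DSG3 and PERP rose with both siRNAs. The fibroblast, endothelial and blood markers summed to at most 6.36 FPKM per list in any library, with at most 2 markers of a list at 1 FPKM. Within the blood list LYZ rose from 0.317 to 2.79 and 3.08 FPKM and LAPTM5 fell from 4.95 to 3.00 and 2.40 FPKM, and their part in the results was not tested. In a bulk sample fewer cells of one kind and less RNA per cell cannot be told apart.

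**Figure D1:**
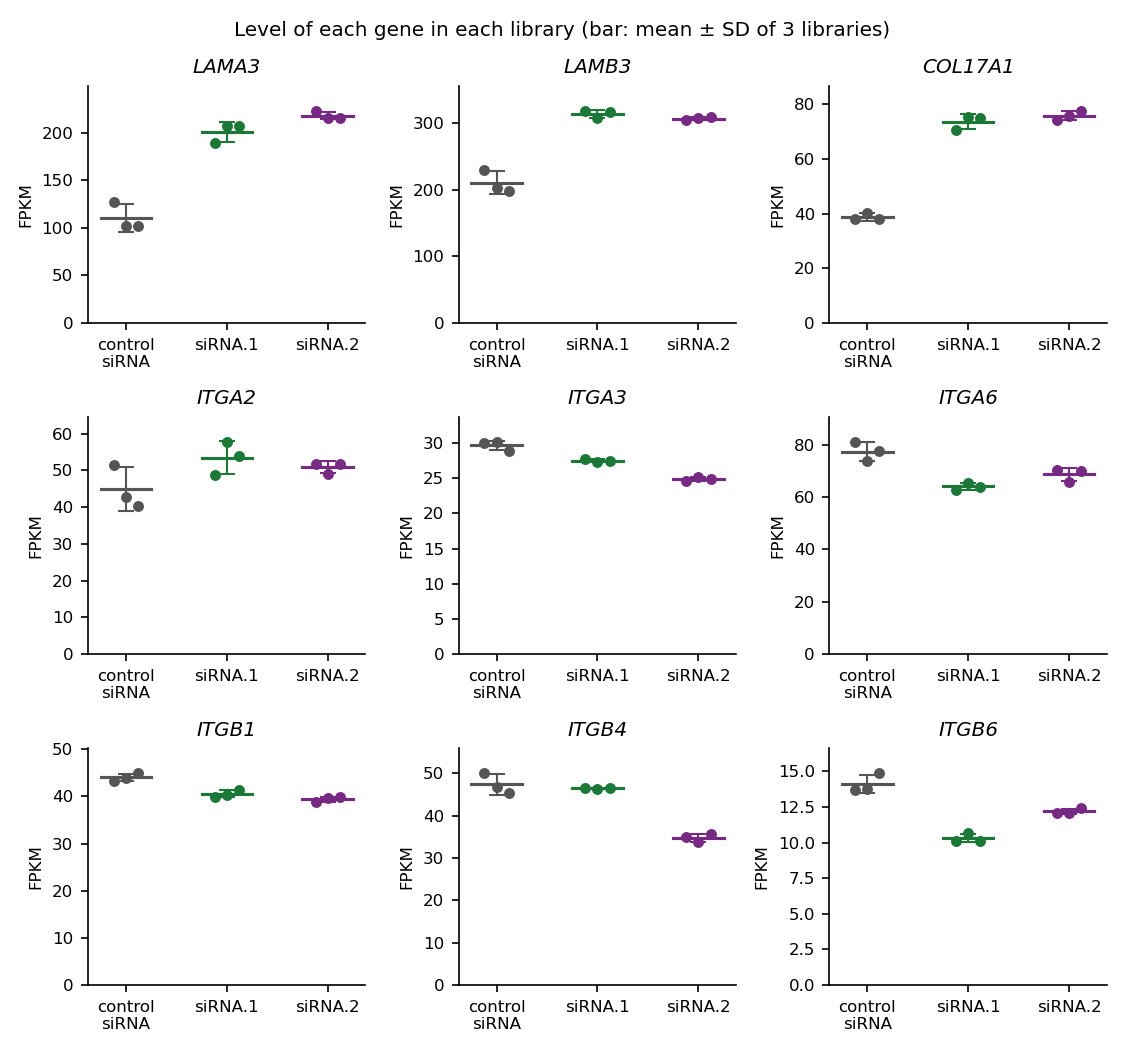
FPKM of the 9 genes in each of the 9 libraries, by condition, on linear axes that start at 0; points are libraries, the horizontal bar is the mean and the whisker the SD of 3 libraries. The knockdown libraries of LAMA3, LAMB3 and COL17A1 all lie above the control libraries, those of ITGA3, ITGA6, ITGB1 and ITGB6 all lie below, ITGB4 is lower with siRNA.2, and ITGA2 overlaps.

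With the deposited exonic lengths the laminin chains had the highest levels of the 9 genes. LAMA3 (ENSG00000053747, chr18:23689453-23956222, plus strand) measured 128, 103 and 102 FPKM in the control libraries, 189, 207 and 208 FPKM with siRNA.1, and 223, 216 and 216 FPKM with siRNA.2. Every knockdown library exceeded every control library, and the first control library stood above the other two. The means were 111 ± 14.6 FPKM (SD, n = 3), 201 ± 10.5 FPKM and 218 ± 3.93 FPKM. LAMA3 rose by a log2 fold change of 0.83 with siRNA.1 (edgeR adjusted p = 3.40e-169) and 0.97 with siRNA.2 (edgeR adjusted p = 2.83e-226). These p-values rest on a spread that the fit took from all genes of similar abundance. With edgeR's robust estimate, in which a gene with a wide spread keeps its own, the standard error of the LAMA3 log2 fold change was 0.085 with either siRNA and the edgeR adjusted p was 9.23e-05 and 3.29e-05.

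LAMB3 (ENSG00000196878, chr1:209614870-209652425, minus strand) measured 230, 202 and 199 FPKM in the control, 317, 307 and 317 FPKM with siRNA.1, and 304, 307 and 309 FPKM with siRNA.2. The knockdown libraries again lay wholly above the control, and the same control library was the highest of its group. LAMB3 rose by 0.55 on the log2 scale with siRNA.1 (SE 0.033, edgeR adjusted p = 4.75e-59) and by 0.53 with siRNA.2 (SE 0.033, edgeR adjusted p = 2.33e-55). Between the siRNAs it differed by -0.02 log2 (95% interval -0.09 to 0.05), which did not pass the test.

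COL17A1 (ENSG00000065618, chr10:104031286-104085880, minus strand), the transmembrane collagen of the hemidesmosome, measured 38.05, 40.3 and 37.9 FPKM in the control, 70.5, 75.2 and 75.0 FPKM with siRNA.1, and 74.1, 75.6 and 77.3 FPKM with siRNA.2. Its knockdown libraries lay far above all control libraries, with little spread in any condition. The log2 fold change was 0.90 with siRNA.1 (SE 0.041, edgeR adjusted p = 5.97e-105) and 0.95 with siRNA.2 (SE 0.041, edgeR adjusted p = 1.99e-119). The difference between the siRNAs was 0.06 log2 (95% interval -0.02 to 0.13) and did not pass the test. COL17A1 ranked higher among all genes by fold change than either laminin chain with siRNA.1, with 90.5% of genes tested below it, against 89.6% for LAMA3 and 84.0% for LAMB3. With siRNA.2 LAMA3 had 91.7% of genes below it and COL17A1 91.5%.

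Among the integrin alpha subunits, ITGA6 (ENSG00000091409, chr2:172427354-172506459, plus strand), the laminin-binding partner of ITGB4, was the most abundant. It measured 80.9, 73.7 and 77.6 FPKM in the control, 62.9, 65.5 and 63.9 FPKM with siRNA.1, and 70.2, 65.7 and 70.1 FPKM with siRNA.2. All knockdown libraries lay below all control libraries. ITGA6 fell by 0.30 on the log2 scale with siRNA.1 (SE 0.040, edgeR adjusted p = 9.66e-13) and by 0.18 with siRNA.2 (SE 0.039, edgeR adjusted p = 2.56e-05).

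ITGA3 (ENSG00000005884, chr17:50055968-50090481, plus strand), the alpha subunit of the other laminin-332 receptor, measured 30.0, 30.1 and 28.9 FPKM in the control, 27.7, 27.3 and 27.5 FPKM with siRNA.1, and 24.6, 25.2 and 24.9 FPKM with siRNA.2. The 3 conditions did not overlap, in the order control, siRNA.1, siRNA.2. The change was small, with a log2 fold change of -0.14 with siRNA.1 (edgeR adjusted p = 0.00872) and -0.26 with siRNA.2 (edgeR adjusted p = 2.31e-08).

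ITGA2 (ENSG00000164171, chr5:52989340-53094779, plus strand), the collagen-binding alpha subunit, was the least certain of the 9. It measured 51.6, 42.6 and 40.2 FPKM in the control, 48.9, 57.6 and 54.0 FPKM with siRNA.1, and 51.9, 49.0 and 51.6 FPKM with siRNA.2. The highest control library lay within the range of both knockdown groups. The log2 fold change was 0.23 with siRNA.1 (edgeR adjusted p = 2.89e-07) and 0.17 with siRNA.2 (edgeR adjusted p = 1.73e-04). With edgeR's robust estimate the adjusted p was 3.57e-04 and 0.00740, and in DESeq2, the tool named in the study's methods, it was 0.0907 and 0.267. Leaving out the third control library took the siRNA.2 value to 0.10 (edgeR adjusted p = 0.103), and leaving out the first took it to 0.28 (edgeR adjusted p = 3.25e-09).

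Of the beta subunits, ITGB1 and ITGB6 fell with both siRNAs and ITGB4 with siRNA.2. ITGB1 (ENSG00000150093, chr10:32887273-33005792, minus strand), the beta subunit shared by ITGA2, ITGA3 and ITGA6, measured 43.2, 43.9 and 44.9 FPKM in the control, 39.9, 40.3 and 41.4 FPKM with siRNA.1, and 38.8, 39.6 and 39.8 FPKM with siRNA.2. The control libraries lay above all knockdown libraries by a narrow margin. ITGB1 fell by 0.15 on the log2 scale with siRNA.1 (edgeR adjusted p = 6.72e-04) and by 0.17 with siRNA.2 (edgeR adjusted p = 4.52e-05). A pseudogene copy, ITGB1P1, held counts worth up to 5.67% of those of ITGB1 in a library, so reads shared between the copies could shift the ITGB1 level slightly.

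ITGB4 (ENSG00000132470, chr17:75721328-75757818, plus strand), the hemidesmosomal beta subunit, separated the siRNAs. It measured 49.95, 46.8 and 45.3 FPKM in the control and 46.5, 46.3 and 46.4 FPKM with siRNA.1, which overlap, and 34.9, 33.8 and 35.6 FPKM with siRNA.2, below both. The log2 fold change was -0.06 with siRNA.1 (95% interval -0.14 to 0.03, edgeR adjusted p = 0.374) and -0.46 with siRNA.2 (SE 0.043, edgeR adjusted p = 3.30e-24). GALK1 overlaps ITGB4 on the opposite strand, with at most 260 counts in a library, or up to 5.93% of the ITGB4 count, and the strandedness of the counting is not given in the sources used here.

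ITGB6 (ENSG00000115221, chr2:160099667-160200313, minus strand), the least abundant of the 9, measured 13.7, 13.7 and 14.8 FPKM in the control, 10.1, 10.7 and 10.1 FPKM with siRNA.1, and 12.1, 12.1 and 12.4 FPKM with siRNA.2. The conditions did not overlap, and siRNA.2 lay between the others. ITGB6 fell by 0.48 on the log2 scale with siRNA.1 (SE 0.063, edgeR adjusted p = 6.57e-13) and by 0.22 with siRNA.2 (SE 0.062, edgeR adjusted p = 0.00154). ITGAV, its only known alpha partner, fell too, from 30.5 ± 1.49 FPKM (SD, n = 3) to 18.6 ± 0.597 after siRNA.1 and 19.6 ± 0.337 after siRNA.2.

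**Figure D2:**
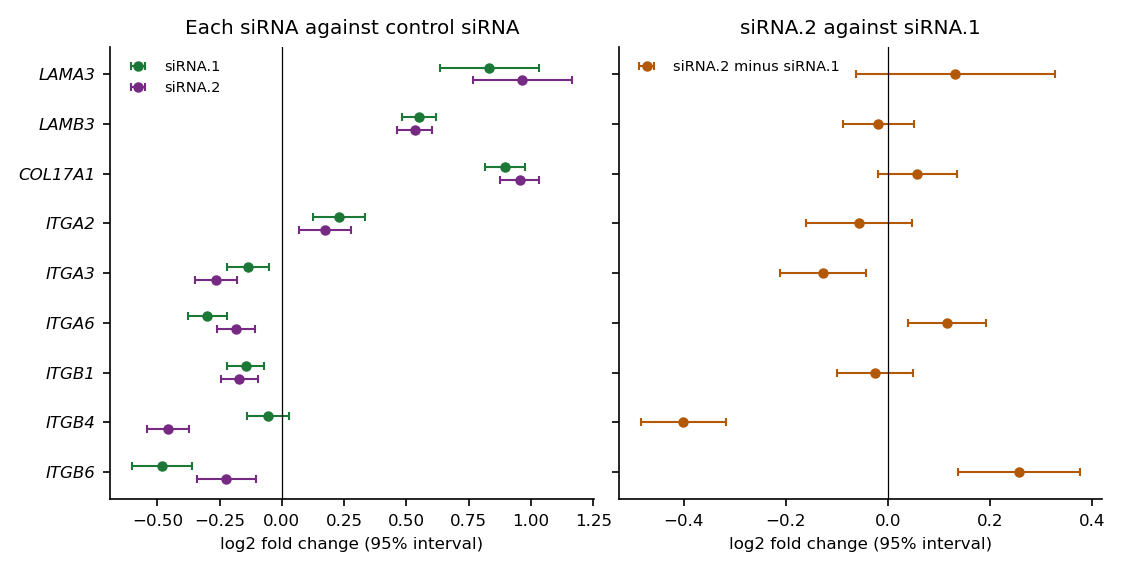
Log2 fold changes of the 9 genes, with each siRNA against control siRNA on the left and siRNA.2 against siRNA.1 on the right; points are edgeR estimates and whiskers 95% intervals from the robust estimate of the spread (3 libraries per condition). LAMA3, LAMB3 and COL17A1 lie between 0.53 and 0.97 on the left, and on the right ITGB4 (-0.40) and ITGB6 (0.26) lie farthest from 0.

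The siRNAs were also compared directly. Of the 9 genes 5 were called between siRNA.2 and siRNA.1, 3 higher and 2 lower with siRNA.2, where 12.2% of all genes tested were called (6.10% higher and 6.06% lower). The same 5 genes had libraries that did not overlap between the siRNAs in CPM, as did 24.7% of all genes tested. ITGB4 was lower with siRNA.2 by a log2 difference of -0.40 (95% interval -0.48 to -0.32, edgeR adjusted p = 5.07e-18), and ITGB6 was higher by 0.26 (95% interval 0.14 to 0.38, edgeR adjusted p = 8.29e-04). These 2 calls held in DESeq2 and in limma on log2 FPKM. ITGA3 differed by -0.13 (edgeR adjusted p = 0.0337) and ITGA6 by 0.12 (edgeR adjusted p = 0.0311), and each of these calls was lost when some single libraries were left out. LAMA3 differed by 0.13 (edgeR adjusted p = 1.79e-04), but the adjusted p was 0.444 with edgeR's robust estimate, 0.472 in DESeq2 and 0.50 in limma, so the call turned on how the spread of LAMA3 was estimated. LAMB3, COL17A1, ITGB1 and ITGA2 did not pass the test between the siRNAs, and the widest of their 95% intervals, that of ITGA2, ran from -0.16 to 0.05.

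Because integrins work as pairs and laminin chains as trimers, ratios of partner genes were taken within each library. The value of a ratio rests on the deposited exonic lengths and would differ with other lengths, so it does not give the proportion of subunits. The fold change of a ratio between conditions does not depend on the lengths. The ratio of ITGA6 to ITGB4 in FPKM was 1.62, 1.57 and 1.71 in the control libraries, 1.35, 1.42 and 1.38 with siRNA.1, and 2.01, 1.95 and 1.97 with siRNA.2. It moved below the control with siRNA.1 and above it with siRNA.2, with no overlap between conditions, and the mean ratio went from 1.63 to 1.38 and 1.98. The ratio of LAMA3 to LAMB3 was 0.525 in the control, 0.640 with siRNA.1 and 0.711 with siRNA.2, again without overlap. The ratio of ITGA2 to ITGB1 was 1.01 in the control, 1.32 with siRNA.1 and 1.29 with siRNA.2. ITGA3 to ITGB1 stayed within the spread of the libraries with siRNA.1 (0.674 in the control and 0.679) and was 0.632 with siRNA.2.

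Of the 18 differences in ratios tested (6 ratios in 3 comparisons), 15 had no overlap between conditions, where 38.5%, 39.8% and 24.7% of single genes tested did not overlap in the same comparisons. The share over other pairs of genes was not computed, so the 15 are a description. One of the ratios, ITGB6 to ITGB1, is of subunits that do not pair with each other, and its 3 differences are among the 15. In an exact two-sided permutation test 3 libraries against 3 cannot give a p below 0.10, so each of the 15 reached that smallest value (Benjamini-Hochberg adjusted p = 0.12) and none could pass 0.05. The other differences were ITGA3 to ITGB1 with siRNA.1 (exact permutation p = 0.80), ITGA6 to ITGB1 with siRNA.2 (exact permutation p = 0.90) and ITGA2 to ITGB1 between the siRNAs (exact permutation p = 0.80).

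The order of the 9 genes by level in the control libraries was LAMB3 (210 ± 17.2 FPKM), LAMA3 (111 ± 14.6), ITGA6 (77.4 ± 3.63), ITGB4 (47.3 ± 2.38), ITGA2 (44.8 ± 5.98), ITGB1 (44.01 ± 0.820), COL17A1 (38.8 ± 1.34), ITGA3 (29.7 ± 0.682) and ITGB6 (14.1 ± 0.653; SD, n = 3). The libraries of ITGA2 overlapped those of ITGB4, ITGB1 and COL17A1, and no other genes of the 9 overlapped. In the knockdown libraries COL17A1 came next after the laminin chains, above ITGA6, at 73.6 ± 2.69 FPKM with siRNA.1 and 75.7 ± 1.59 FPKM with siRNA.2.

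Levels of different genes depend on the length the counts are divided by, which in the deposited FPKM is the total length of all annotated exons of a gene. For ITGB1 that length is 14561 bases, against 3735 bases for the canonical GENCODE transcript ITGB1-201, and with the latter its control level was 172 FPKM in place of 44.01. With canonical lengths LAMB3 was at 243 FPKM, LAMA3 at 151, ITGA6 at 88.9, ITGA3 at 59.5, ITGB4 at 54.3, COL17A1 at 48.3, ITGA2 at 45.1 and ITGB6 at 17.6, which put ITGB1 between LAMB3 and LAMA3. If all LAMA3 counts came from the short transcript LAMA3-201 (38 exons, 5618 bases), its control level would be 286 FPKM, above LAMB3. Fold changes of a gene between conditions do not depend on this choice of length, and the counts do not tell the LAMA3 transcripts apart.

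**Figure D3:**
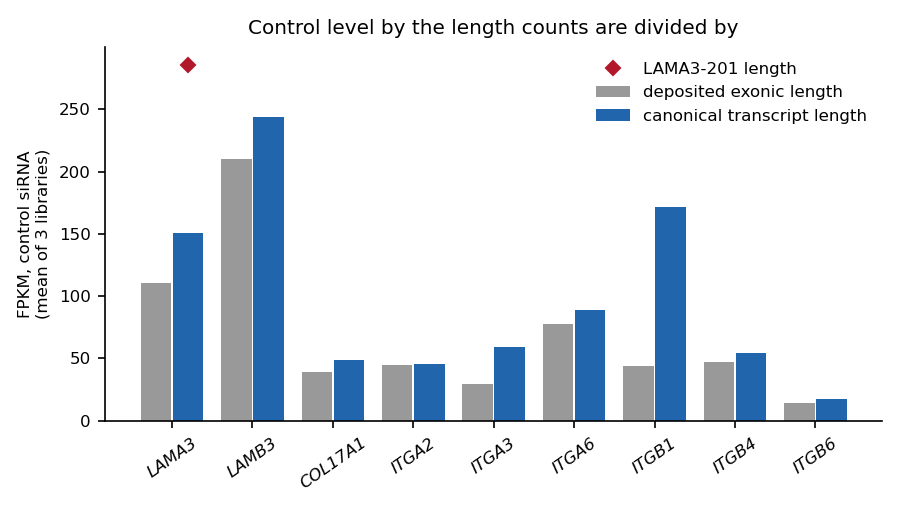
Mean FPKM of the 9 genes in the control libraries, computed with the deposited exonic length (grey bars) and with the canonical transcript length (blue bars), from 0; the diamond is LAMA3 with the length of its short transcript. ITGB1 goes from 44.01 to 172 FPKM, and LAMA3 with the short length (286 FPKM) exceeds LAMB3.

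Other laminin chains moved in both directions. Of 9 listed, 7 were tested, 3 were called higher and 3 lower with both siRNAs, against 11.1% and 10.2% of all genes. LAMA5, the alpha chain of the laminins common in most adult basement membranes, fell from 43.5 ± 0.942 FPKM (SD, n = 3) to 28.2 ± 2.36 after siRNA.1 and 23.4 ± 1.15 after siRNA.2 (edgeR adjusted p = 6.19e-58 and 1.17e-111). LAMB1, a beta chain of those laminins, rose from 23.2 to 32.0 and 28.0 FPKM, and LAMC3 rose from 2.25 to 3.59 and 3.87 FPKM. LAMC1, the gamma chain of most laminins, and LAMB2 fell by less, LAMC1 from 116 to 110 and 101 FPKM.

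Of 14 remaining hemidesmosome and anchoring zone genes tested, 2 were called higher and 4 lower with siRNA.1 (15.0% and 15.2% of all genes), and 1 higher and 7 lower with siRNA.2 (15.8% and 15.1% of all genes), with a median log2 fold change of -0.01 and -0.15. KRT5, the basal keratin to which hemidesmosomes anchor, had the largest change, from 142 ± 8.29 FPKM (SD, n = 3) to 40.0 ± 2.81 after siRNA.1 and 55.8 ± 2.85 after siRNA.2 (log2 fold changes -1.86 and -1.36). KRT14, the other keratin of the list, was at 9.07, 10.7 and 8.67 FPKM and was not called with either siRNA. PLEC, the plakin that binds ITGB4, fell, with log2 fold changes of -0.16 and -0.23, while DST was not called with either siRNA. COL4A6, a basement membrane collagen chain, rose from 4.72 to 11.1 and 10.3 FPKM, and HSPG2, the proteoglycan perlecan, fell from 5.85 to 4.33 and 3.82 FPKM.

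Among the other integrin subunits, 2 of 7 alpha and 2 of 3 beta subunits tested were called in the same direction with both siRNAs, where 11.1% of all genes were called higher and 10.2% lower with both. Of the 7 alpha subunits tested, 2 were called higher and 2 lower with siRNA.1, and 1 higher and 1 lower with siRNA.2, and ITGAV was the one lower with both. Of 3 beta subunits tested, ITGB8, another partner of ITGAV, fell from 13.5 ± 0.885 FPKM (SD, n = 3) to 7.48 ± 0.318 and 8.37 ± 0.835, and ITGB5, also a partner of ITGAV, rose from 6.06 to 7.43 and 7.02 FPKM. The adaptors that join integrins to actin gave 3 higher and 5 lower calls of 20 with siRNA.1, where 15.0% of all genes were higher and 15.2% lower, and 0 higher and 11 lower with siRNA.2, where 15.8% were higher and 15.1% lower, with a median log2 fold change of -0.04 and -0.18. Lower with both were TLN1 (talin), VCL (vinculin), RSU1 and TNS3. TLN1 fell from 19.8 to 16.1 and 16.8 FPKM, VCL from 35.4 to 29.3 and 26.4 FPKM, and RSU1 from 13.9 to 9.92 and 11.6 FPKM.

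Integrin ligands outside the laminins split as well. Of 12 tested, 3 were called higher and 4 lower with both siRNAs, again against 11.1% and 10.2% of all genes. FN1, fibronectin, rose from 146 ± 16.4 FPKM (SD, n = 3) to 269 ± 13.7 after siRNA.1 and 212 ± 2.44 after siRNA.2, and THBS1, thrombospondin, rose from 322 to 471 and 534 FPKM. COL5A1 fell from 9.38 to 7.86 and 4.45 FPKM, and NPNT, a basement membrane ligand of integrins, from 7.15 to 4.68 and 4.51 FPKM. TGFB2, a latent growth factor of the same list, fell from 13.3 to 9.03 and 8.25 FPKM, and its binding to an integrin was not measured. The related TGFB1, at 20.5, 20.8 and 22.8 FPKM in the 3 conditions, and TGFB3 were not called with either siRNA.

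Of 9 genes that process laminin or other matrix proteins, 1 was called higher and 4 lower with each siRNA, and 3 were lower with both, where 30.3% and 30.9% of all genes were called with siRNA.1 and siRNA.2 and 10.2% were lower with both. BMP1, a protease that trims laminin-332, fell from 14.8 to 12.5 and 9.06 FPKM, MMP14 from 173 to 139 and 161 FPKM, and BACE2 from 2.16 to 1.46 and 1.59 FPKM. Among 4 other laminin receptors 1 was called higher and 3 lower with both siRNAs, against the same shares. BCAM, which binds laminins that carry LAMA5, fell from 38.4 ± 1.26 FPKM (SD, n = 3) to 20.7 ± 0.613 and 18.03 ± 0.315, SDC1 and DAG1 fell by less, and SDC4 rose from 110 to 146 and 143 FPKM.

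For each of the 9 genes, the gene whose log2 CPM followed it most closely over the 9 libraries was found among 7151 genes averaging 5 FPKM or more. The libraries form 3 conditions, so these correlations mostly restate the differences between conditions and are given as a description. LAMA3 was closest to GBP1, a guanylate-binding protein (r = 0.993), LAMB3 to ZDHHC8 (r = 0.993) and COL17A1 to the zinc finger gene ZNF146 (r = 0.998). ITGA3 was closest to NET1 (r = 0.993), ITGA6 to PAPOLA (r = 0.983) and ITGA2 to AREL1 (r = 0.933). ITGB1 was closest to TCEAL1 (r = 0.993), ITGB4 to ARF3 (r = 0.994) and ITGB6 to FAM199X (r = 0.989). How closely such genes crowd together differed, with 824 genes above r = 0.9 for COL17A1 and 8 for ITGA2.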

How the data were processed

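RNA-seq libraries from TE13 cells (3 conditions, 3 libraries each) were grouped by their labels. The authors captured poly(A)+ RNA, aligned reads to GRCh38 with STAR and used featureCounts for gene-level counting; versions and strandedness are not given in the sources used here. The deposited table holds raw counts, without normalization, and FPKM per gene from the authors, which differed by at most 0.005 from values recomputed from the counts, the deposited exonic length and each library's total.

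Counts were tested with edgeR 4.0.16 in R 4.3.3 (quasi-likelihood, TMM factors 0.989 to 1.02) with all 3 conditions fitted together; 21395 genes averaging 0.1 FPKM or more entered, and p-values were Benjamini-Hochberg adjusted (threshold 0.05). For all 21395 genes the fit took the spread from the trend over abundance and none from the gene itself. edgeR with a robust estimate of the spread was therefore added after seeing the data. In simulated counts for siRNA.1 against control, edgeR recovered 174 of 200 changed genes and called 8 unchanged ones. Every simulated gene was given the same spread. The simulation therefore could not show false calls among genes with a wide spread of their own. DESeq2 1.42.0, limma 3.58.1, other scalings, filters and left-out libraries were alternatives. Partner ratios were compared by exact permutation.

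The 9 genes and all lists were chosen with earlier results of these data known. Named were the 9 genes, the targeted gene and the closest gene to each of the 9. Per other list, up to 3 genes per direction were named. They had the largest mean log2 fold change among those called with both siRNAs and averaging 1 FPKM or more. TNS3 was named outside this rule, after its values were seen, to complete a count. TGFB1, TGFB3, KRT14, KRT8 and DST were also named after their values were seen, as genes not called. Libraries of a condition differed from one another by more than counting error (chi-square per degree of freedom 2.76 to 4.62). Promoter sequences are RefSeq's.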

Additional observations from a re-analysis of the deposited data

Results flagged for a closer look

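In the main edgeR fit 5 of the 9 genes were called when siRNA.2 was tested against siRNA.1, where 12.2% of all genes tested were called. On the log2 scale, siRNA.2 minus siRNA.1, the difference was -0.40 for ITGB4, 0.26 for ITGB6, 0.13 for LAMA3, -0.13 for ITGA3 and 0.12 for ITGA6. ITGB4 and ITGB6 kept their calls in each alternative and with each library left out. The LAMA3 difference was lost in DESeq2, in limma on FPKM, with a filter of 1 FPKM and with edgeR's robust estimate of the spread (adjusted p = 0.444). The ITGA3 and ITGA6 differences were lost in several alternatives.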

How the results depend on the processing

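Against control, siRNA.1 gave 7 to 8 calls among the 9 genes and siRNA.2 gave 8 to 9 under the alternatives, and no call reversed. In the main fit 30.3% of all genes tested were called with siRNA.1 and 30.9% with siRNA.2. The gene lost in DESeq2 and in limma on FPKM was ITGA2 in both comparisons.

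Between the siRNAs, calls over all genes went from 2603 to 1437 with limma on log2(FPKM + 0.1) and 1414 with limma on log2(FPKM + 1). Calls among the 9 genes went from 5 to 3 in both, to 3 without the filter on low values, and ranged from 3 to 5 with a library left out; they were 3 without replicate 1 or replicate 3 of either siRNA, where ITGA3 and ITGA6 were lost. The cause was not tested. The robust estimate, added after the data were seen, gave 4.

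The fit with the replicate number as a replicate block gave 3 calls among the 9 genes between the siRNAs, losing ITGA3 (adjusted p = 0.0623) and ITGA6 (adjusted p = 0.0614), and 6215, 6359 and 2342 calls over all genes in the 3 edgeR comparisons. Deviations of same-numbered libraries correlated between -0.194 and 0.107, so the numbers were not taken to pair the libraries.

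Canonical transcript lengths, also added later, moved levels as described and left fold changes untouched. Low counts limited LINC00885, with at most 12 counts in a library, and the listed genes that were too low to test.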

Other observations

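Keratinocyte and epithelial markers outside the adhesion genes also changed, in both directions. KRT6A, a keratin of activated keratinocytes, rose from 78.7 FPKM to 102 ± 2.04 (SD, n = 3) after siRNA.1 and 118 ± 4.29 after siRNA.2, DSG3, a desmosomal cadherin, from 10.3 to 15.8 and 12.6 FPKM, and PERP, another desmosomal gene, from 66.4 to 86.9 and 84.9 FPKM. KRT17 fell from 161 to 141 and 128 FPKM, and TP63, the transcription factor of basal keratinocytes, from 21.4 to 19.7 and 18.7 FPKM. Of the simple epithelial markers, KRT18 and EPCAM rose with both siRNAs, EPCAM from 99.0 to 137 and 136 FPKM. KRT19 fell from 311 to 212 and 194 FPKM, and CDH1, E-cadherin, from 133 to 123 and 93.3 FPKM. All of these passed edgeR's test with both siRNAs. KRT8, the remaining simple epithelial marker, was not called with either siRNA.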
